A study of Homo sapiens with 21 samples.

Results

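The genes described are 7 keratins grouped as those of luminal (glandular) epithelial cells, KRT7, KRT8, KRT18, KRT19, KRT17, KRT80 and KRT81, taken by symbol from the 58735 genes of the expression table. That label did not hold for KRT17 and KRT81 in the untreated cells, where each had at most 13 fragments in a library. They are 7 of the 55 protein-coding keratin genes in that table, and all 7 had a mean of at least 0.5 FPKM (fragments per kilobase of gene length, scaled by library size) over the 21 libraries, as had 14686 genes in all. KRT17 passed this limit only through the calcium group: its mean over the other libraries was 0.372 FPKM. Its differences that involve the calcium libraries are therefore given as values, with no test. RNA-seq was performed on MDA-MB-453 cells, a human breast cancer line without expression of estrogen receptor alpha (ESR1), labelled WT in genotype throughout, with 3 libraries in each of 7 groups. The groups were an untreated control, calcium (10 mM), cadmium (10 μM), GSK4716 (5 μM), diethylstilbestrol (DES, 10 μM), DES (10 μM) with calcium (10 mM), and DES (10 μM) with cadmium (10 μM). GSK4716 was used in the study as an agonist, and DES as an antagonist, of the estrogen-related receptor ESRRB, which the study asks whether the metals activate. Treatments lasted 24 h, and DES was added 3 h before a metal. Before treatment every culture had a day in medium with charcoal-stripped serum. Calcium and GSK4716 were then given without serum and cadmium with 1% of that serum, while the medium of the control and of DES alone is not stated, so treatment and medium cannot be told apart in comparisons with either. The labels do not say whether the 3 libraries of a group come from separate cultures, and p-values then measure only the spread between these libraries, which may be technical.

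Keratins are the intermediate filament proteins of epithelial cells. A filament is built from pairs of 1 type I (acidic) and 1 type II (basic) chain, so cells express members of both types, in combinations that mark the kind of epithelium. KRT8 (type II) with KRT18 (type I) is the primary pair of simple epithelia, joined in the luminal cells of the breast by KRT7 (type II) and KRT19 (type I). KRT17 (type I) is better known from basal cells, skin appendages and wounded epithelium, KRT80 (type II) from differentiating epithelium, and KRT81 (type II) from the hair cortex. Type II genes lie together on chromosome 12, as does KRT18, and the other type I genes lie on chromosome 17.

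On GRCh38, the build of the files, KRT80 lies at chr12:52168996-52192000 (minus strand), KRT7 at chr12:52232520-52252186 (plus), KRT81 at chr12:52285913-52291534 (minus), KRT8 at chr12:52897187-52949954 (minus) and KRT18 at chr12:52948871-52952901 (plus). KRT19 lies at chr17:41523617-41528308 and KRT17 at chr17:41619441-41624842, both on the minus strand. KRT8 and KRT18 share 525 exon bases on opposite strands, 7.63% of those of KRT8 and 17.1% of those of KRT18. KRT7 shares 282 exon bases with the antisense gene KRT7-AS. KRT17 shares 307 exon bases, 10.2% of its own, with an unnamed gene on the opposite strand. The sources differ on whether the library preparation was stranded, so fragments in these overlaps could belong to either gene.

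The libraries held 14435925 to 28424805 fragments assigned to genes, and whole fragments were recovered from the deposited FPKM for 100% of values. The deposited scaling differed between libraries, with a library size of 0.693 to 1.15 times the fragments on genes. Replicate 1 of DES with cadmium had the lowest of these factors and stood farthest from all others on the second principal component. The share of FPKM on the mitochondrial genome was 26.2% to 28.4% in the control, 23.7%, 17.1% and 26.2% in calcium replicates 1, 2 and 3, and 5.74% to 15.2% in the libraries with DES. Of the luminal markers, EPCAM was at 50.9 to 190 FPKM and GATA3 at 109 to 333, ERBB2 (HER2) was at 97.2 to 210, and ESR1 did not exceed 0.123. The 4 basal markers (TP63, KRT5, KRT14, ACTA2) together did not exceed 1.78 FPKM in any library, and KRT14 had a median of 0.

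Expression of each of the 6 keratins other than KRT17 was higher in every calcium-treated library than in every control library. Of these 6, 5 passed the test, all of them higher. The rises ran from 2.35-fold for KRT7 to 3.46-fold for KRT8 among the abundant luminal keratins. They were larger for the scarce ones, 7.75-fold for KRT80 and 129-fold for KRT81. KRT19, the most abundant of the 7 in deposited FPKM, was 1.93-fold higher and missed the threshold. Over all genes tested, 7.12% were called in this comparison and 4.6% were called as higher, and the groups did not overlap for 29.6%. These folds and all log2 fold changes below come from limma on log2(FPKM + 0.1), a scale on which changes of scarce genes come out too small, and a gene was called at an adjusted p (Benjamini-Hochberg over all 14686 genes, two-sided) under 0.05. The median log2 fold change was 1.72 over the 6 keratins without KRT17 and -0.013 over all genes tested. Expression in bulk RNA is a share of the library, so more keratin mRNA per cell and more cells with it cannot be told apart.

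In the simple epithelial pair, KRT8 had 165, 146 and 230 FPKM in control replicates 1, 2 and 3, and 726, 705 and 447 FPKM in calcium replicates 1, 2 and 3. The lowest calcium library was thus above the highest control library. Its log2 fold change was 1.79 ± 0.28 (SE, n = 3 per group, adjusted p = 0.0227). KRT18, the type I chain that pairs with KRT8, had 163, 144 and 215 FPKM in the control and 611, 656 and 393 FPKM with calcium. Calcium replicate 3 was the lowest of its group for both chains, and the log2 fold change of KRT18 was 1.65 ± 0.27 (SE, adjusted p = 0.0246).

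KRT7, which marks glandular and ductal epithelium, had 153, 125 and 195 FPKM in the control and 362, 464 and 290 FPKM with calcium. Again the groups did not overlap, with a log2 fold change of 1.23 ± 0.25 (SE, adjusted p = 0.0417). KRT19, the smallest keratin, had 547, 571 and 599 FPKM in the control and 1171, 1297 and 888 FPKM with calcium. The control libraries of KRT19 averaged 572 ± 26.1 FPKM (SD, n = 3), and every calcium library was above them. The log2 fold change of KRT19 was 0.95 ± 0.23 (SE, 95% interval 0.39 to 1.51), with an adjusted p of 0.0651 by limma and 0.00922 by limma-voom on the recovered fragments.

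KRT80 had 2.97, 4.72 and 9.68 FPKM in the control and 30.8, 41.5 and 52.5 FPKM with calcium. Calcium replicate 3, the lowest of its group for KRT8, KRT18, KRT7 and KRT19, was the highest for KRT80. The log2 fold change of KRT80 was 2.95 ± 0.44 (SE, adjusted p = 0.0216). KRT17 had 0.0494, 0.0907 and 0.0387 FPKM in the control, from 5, 6 and 2 fragments. With calcium it had 1.99, 8.10 and 3.67 FPKM from 139, 443 and 257 fragments, above every control library. The ratio of the mean FPKM was 76.9, and the difference on the log2 scale was 4.66. The 8 KRT17 pseudogenes together held at most 17 fragments in a library, which was up to 150% as many as KRT17 itself.

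KRT81 had the steepest rise of the 7. It had 0.128, 0.319 and 0.251 FPKM in the control, from 8, 13 and 8 fragments, and 11.4, 104 and 59.7 FPKM with calcium, from 489, 3517 and 2579 fragments. The calcium libraries differed among themselves, with replicate 1 far below the other replicates, yet all were above the control. The log2 fold change was 7.01 ± 0.81 (SE, adjusted p = 0.0123). The ratio of the mean FPKM was 251.

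**Figure D1:**
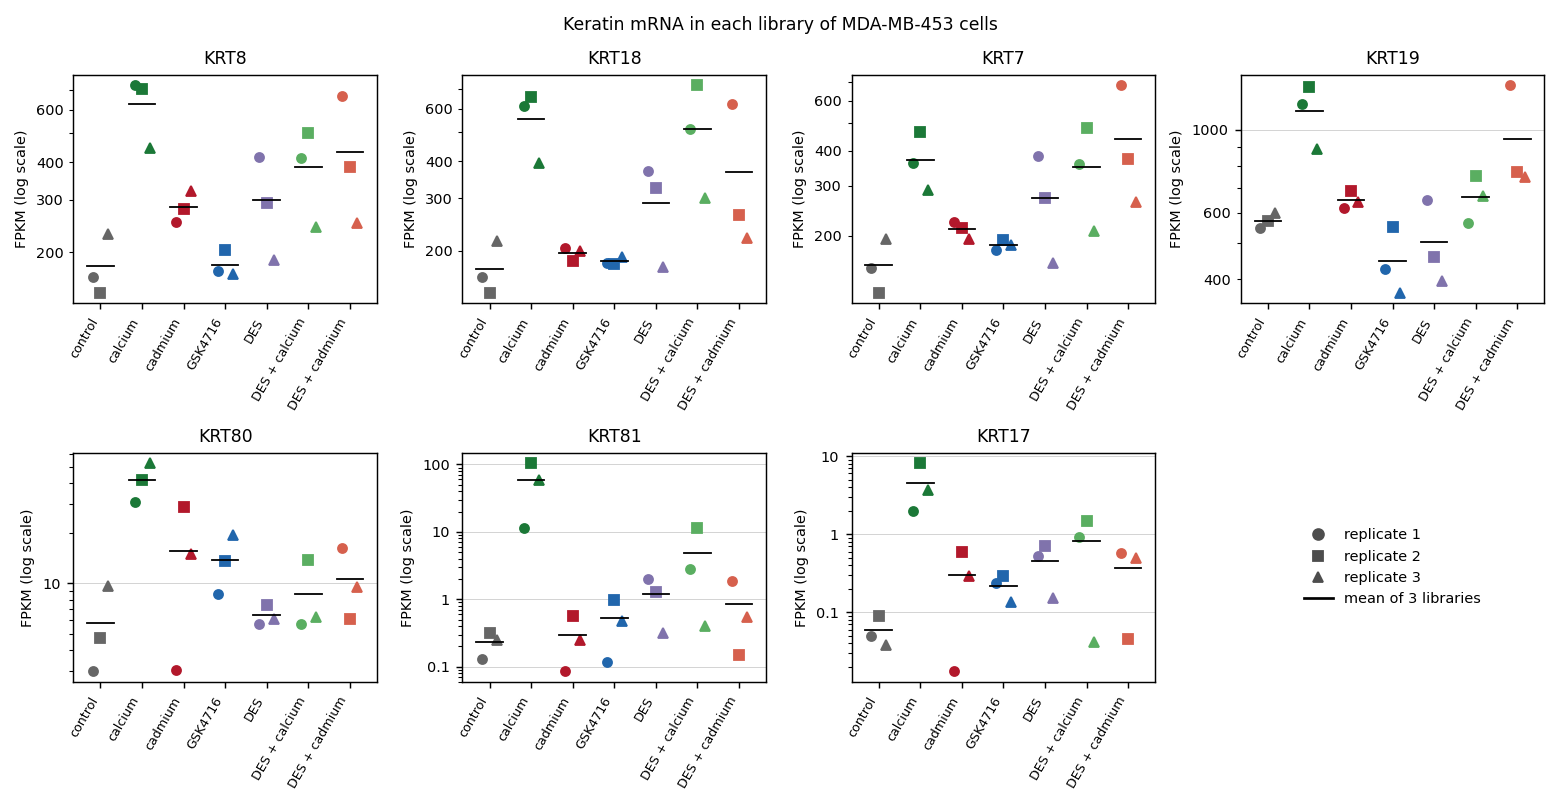
FPKM (log scale, a separate range in each panel) of the 7 keratins in each library, by group. Circles, squares and triangles are replicates 1, 2 and 3, and bars are the means of 3 libraries. All calcium libraries lie above all control libraries in every panel, from 888 against 599 FPKM for KRT19 to 11.4 against 0.319 FPKM for KRT81.

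KRT81 has a near copy, the hair keratin KRT86, and part of its sequence cannot tell them apart. The coding sequences of KRT81 (1518 bases) and KRT86 (1461 bases), from the GENCODE canonical transcripts, share an identical stretch of 605 bases. Of all 150-base windows (the read length) of the KRT81 transcript, 25.6% occur unchanged in KRT86, and of the windows of the other 6 keratins none occurs in another keratin transcript. KRT81 lies inside the span of KRT86, on the opposite strand, without shared exon bases.

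KRT86 had 15, 9 and 5 fragments in the control and 29, 210 and 65 fragments with calcium, where it held 5.93%, 5.97% and 2.52% as many fragments as KRT81. The calcium library with the most KRT81 also had the most KRT86. The mean of KRT86 outside the calcium group was 0.383 FPKM, so that it too passed the limit of 0.5 FPKM only through the calcium group, and its difference of 2.62 (log2) is given with no test. KRT83, the other close relative, shares a longest identical stretch of 95 bases with KRT81 and had 17, 50 and 19 fragments with calcium. Set against KRT81 without gaps, it matched at 92.2% of 1467 coding bases, and KRT86 at 90.4% of 1461. Inserted or missing bases lower such values, so they do not rank these relatives. Summed over KRT81, KRT86 and KRT83, which does not depend on how reads were split between them, there were 26, 30 and 15 fragments in the control and 535, 3777 and 2663 with calcium.

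**Figure D2:**
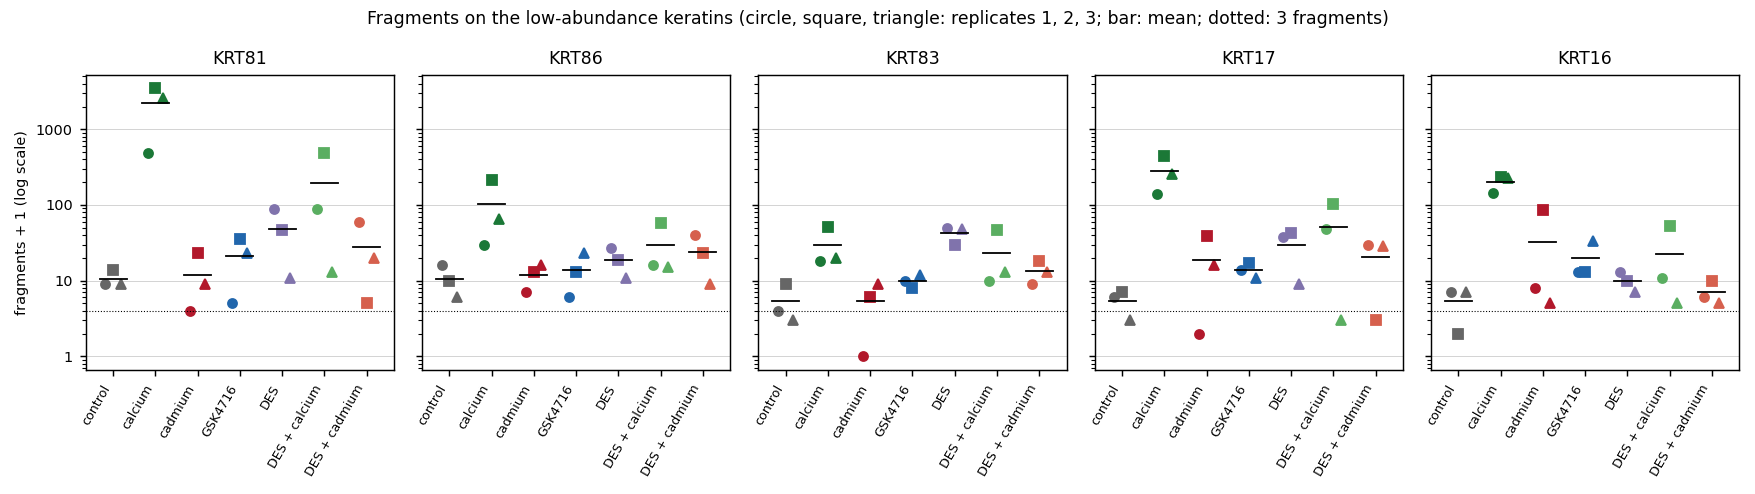
Fragments plus 1 (log scale) on KRT81, its relatives KRT86 and KRT83, KRT17 and KRT16 in each library. Circles, squares and triangles are replicates 1, 2 and 3, bars are means of 3 libraries, and the dotted line marks 3 fragments, the limit that a count of 0 allows. The calcium group has the highest mean in the KRT81, KRT86, KRT17 and KRT16 panels, and in KRT83 the DES group has, with 48, 29 and 47 fragments.

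The calcium calls of the abundant keratins rested on few libraries. Without control replicate 1 or without control replicate 2 none was called, and the calls over all genes fell to 7 and 46. Without calcium replicate 1 or without calcium replicate 2 KRT81 alone of the 6 was called. Without control replicate 3 KRT7 lost its call, and without calcium replicate 3 KRT80 lost it and KRT19 gained it. With the replicate number as a block KRT80 and KRT81 were called, and without a filter on low values none was. With all 7 groups in one fit KRT7 lost its call (adjusted p = 0.0553) and KRT19 gained one. In every one of these alternatives each of the 6 was higher with calcium. The log2 fold changes were 1.04 to 1.40 for KRT7, 1.40 to 2.02 for KRT8, 1.36 to 1.88 for KRT18 and 0.44 to 1.11 for KRT19. They were 2.57 to 3.50 for KRT80 and 5.12 to 7.94 for KRT81. The difference of KRT17, given with no test, ran from 2.25 to 5.90. By limma-voom all 6 were called, as they were with a pseudocount of 1 and with library weights (arrayWeights).

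Markers of other cells also moved in part with calcium. The 4 basal markers summed to 0.0667 to 0.217 FPKM in the control libraries and 0.348 to 0.817 with calcium, and the 4 mesenchymal markers (VIM, CDH2, ZEB1, FN1) to 0.543 to 1.24 and 1.07 to 3.61. The 3 fibroblast markers summed to 10.5 to 12.1 and 14.1 to 17.1 FPKM, nearly all of it COL1A1, while COL1A2 did not exceed 0.062. Within these lists CDH2 reached 3.39 FPKM in a library, TP63 1.07, KRT5 0.699, KRT14 0.375 and VIM 0.131. Their part in the keratin differences was not tested.

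The keratins made up 0.379%, 0.369% and 0.442% of the FPKM of all genes in the control libraries and 0.957%, 1.12% and 0.752% with calcium. Type II chains rose relative to type I chains in this sum. The ratio of summed type II to summed type I FPKM was 0.452, 0.386 and 0.534 in the control and 0.633, 0.670 and 0.661 with calcium. It was above the control range in all libraries of cadmium, GSK4716 and DES too, between 0.560 and 0.788. It overlapped the control only with DES and calcium, in replicate 3 (0.473), and reached down to 0.538 with DES and cadmium. KRT19 was 73.6% to 79.8% of the type I sum in the control and 65.6% to 69.1% with calcium. KRT81 reached 7.93% of the type II sum in calcium replicate 2, from at most 0.116% in the control.

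The ratio within the KRT8 and KRT18 pair moved the most with cadmium. KRT8 was at 1.01, 1.01 and 1.07 times the FPKM of KRT18 in the control, at 1.19, 1.08 and 1.14 times with calcium, and at 1.24, 1.51 and 1.61 times with cadmium. With DES it was at 1.12, 0.906 and 1.07 times, and with DES and calcium at 0.808, 0.692 and 0.809 times, the lowest ratios of all groups. These ratios were not tested, and the FPKM uses long gene models that set their level: KRT8 was divided by 6881 bases, 3.86 times its canonical transcript, and KRT18 by 3218 bases, 2.28 times its own. Per canonical transcript length the control means were 962 ± 43.9 FPKM for KRT19, 695 ± 170 for KRT8, 398 ± 88.7 for KRT7, 396 ± 83.9 for KRT18, 6.51 ± 3.91 for KRT80, 0.233 ± 0.097 for KRT81 and 0.123 ± 0.057 for KRT17 (SD, n = 3). On this scale the mean of KRT8 was below that of KRT19 in the control and with GSK4716 and above it in the other 5 groups. With calcium it was at 2414 ± 599 against 1880 ± 352 FPKM, which differ by less than their spread, and with cadmium at 1094 ± 135 against 1090 ± 58.5 FPKM.

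**Figure D3:**
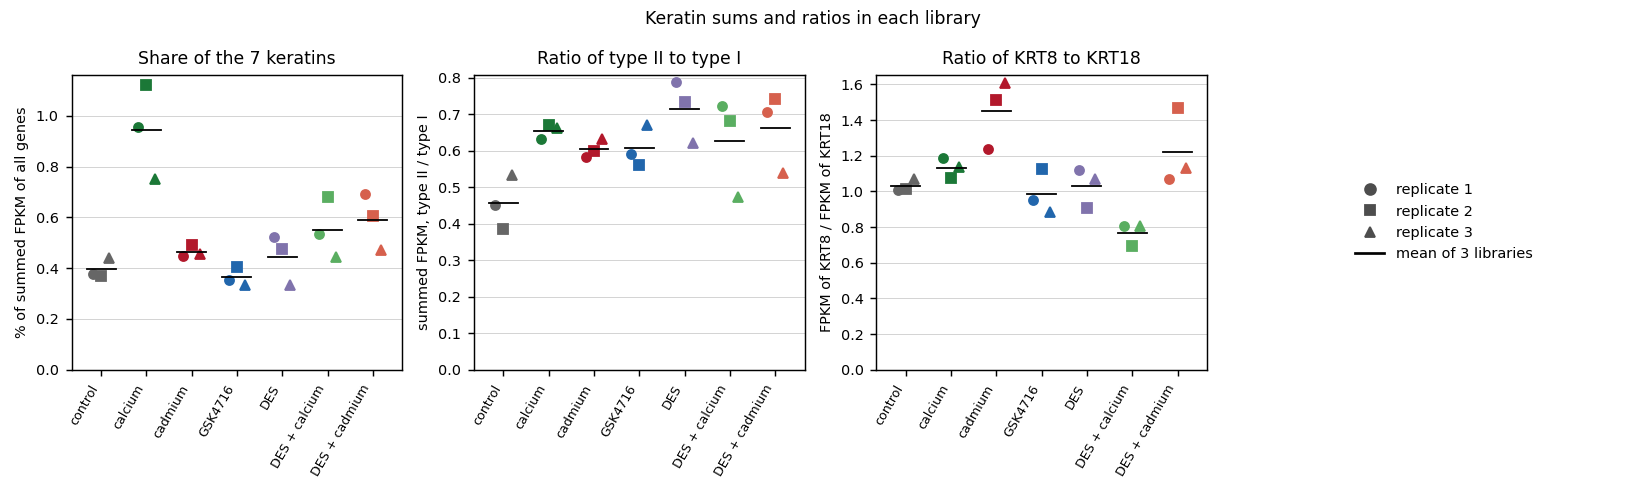
Share of the 7 keratins in the summed FPKM of all genes (left), ratio of summed type II to type I FPKM (middle) and ratio of KRT8 to KRT18 FPKM (right) in each library, on linear axes from 0. Circles, squares and triangles are replicates 1, 2 and 3, and bars are means of 3 libraries. The calcium libraries hold the 3 highest shares, 0.752% to 1.12%, and the cadmium libraries the highest mean ratio of KRT8 to KRT18, 1.45.

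With cadmium, none of the 7 keratins was called by limma or by limma-voom, and KRT8 alone had an unadjusted p under 0.05. Over all genes 0.15% were called in this comparison. KRT8 had 252, 278 and 321 FPKM with cadmium, all above the control, and a log2 fold change of 0.67 ± 0.22 (SE, adjusted p = 0.129). KRT18, by contrast, had 204, 184 and 200 FPKM, within the control range. KRT19 had 618, 686 and 641 FPKM, all above the control, with a log2 fold change of 0.18 (95% interval -0.23 to 0.59). In deposited FPKM, KRT8 and KRT19 were thus 2 of 7 whose groups did not overlap, beside 34.4% of all genes. As a share of fragments on genes, KRT19 in cadmium replicate 3 (24619 of 16380950) was below control replicate 2 (28166 of 18431296). KRT80 differed widely among the cadmium libraries, with 3.03, 28.6 and 14.9 FPKM, and its log2 fold change of 1.07 had a 95% interval of -1.03 to 3.18. KRT17 and KRT81 stayed at or below 0.597 FPKM. The basal markers summed to 0.573 to 1.78 FPKM with cadmium, above every control library (at most 0.217), and their part in the keratin values was not tested. When libraries were weighted by their quality (arrayWeights), 6 of the 7 were called as higher, all but KRT18, among 8325 of all 14686 genes called with these weights.

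With GSK4716, none was called by limma, beside 0% of all genes, or by limma-voom, which called 79 genes, and KRT17 and KRT80 had an unadjusted p under 0.05. KRT80 had 8.69, 13.6 and 19.4 FPKM, against at most 9.68 in the control, and a log2 fold change of 1.34 ± 0.49 (SE, adjusted p = 0.263). KRT17 had 0.235, 0.288 and 0.134 FPKM from 13, 16 and 10 fragments, above every control library. It was the only 1 of the 7 whose groups did not overlap, beside 22.1% of all genes, with an adjusted p of 0.213. KRT8 had 173, 203 and 169 FPKM and KRT18 had 182, 180 and 191 FPKM. Both lay inside their control ranges, with log2 fold changes of 0.034 (95% interval -0.44 to 0.51) and 0.10 (-0.31 to 0.51). KRT19 had 425, 552 and 367 FPKM, a log2 fold change of -0.37 (-0.85 to 0.11). The basal markers summed to at most 0.0587 FPKM with GSK4716, below every control library, and the leukocyte markers to 0.0515 to 0.187, above them, and their part in the keratin values was not tested.

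DES changed the largest part of the transcriptome of any treatment compared with the control, with 29.6% of all genes called, and none of the 7 keratins was among them. KRT17 and KRT81 had an unadjusted p under 0.05, and limma-voom called KRT17 alone. The DES libraries differed widely. KRT7 had 382, 272 and 160 FPKM in DES replicates 1, 2 and 3, KRT8 had 415, 293 and 188 FPKM, and KRT18 had 371, 324 and 176 FPKM. For all 3 genes replicates 1 and 2 were above every control library and replicate 3 was within the control range. Their log2 fold changes were 0.72 ± 0.34, 0.68 ± 0.33 and 0.69 ± 0.32 (SE), with adjusted p of 0.154, 0.155 and 0.146. Without DES replicate 3 these became 1.05, 0.98 and 1.01, and KRT7 and KRT18 were called (adjusted p = 0.0409 and 0.0314), as were KRT17 and KRT81. After quantile normalization they were 0.093, 0.041 and 0.053. As a share of the FPKM outside the mitochondrial genome the 7 keratins made up 0.546% ± 0.0468 in the control and 0.505% ± 0.116 with DES (SD, n = 3). The 3 leukocyte markers (PTPRC, CD3E, CD68) summed to 0.141 to 1.05 FPKM with DES against at most 0.042 in the control, although PTPRC did not exceed 0.079 and CD3E 0.149 in any library, and the fibroblast markers summed to up to 32.9 FPKM, in every library above the control (at most 12.1). Their part in these values was not tested.

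KRT19 did not follow them, with 649, 459 and 396 FPKM under DES and a log2 fold change of -0.22 (95% interval -0.83 to 0.38). After quantile normalization KRT19 was called as lower with DES, at -0.82 (adjusted p = 0.00475). KRT80 had 5.70, 7.48 and 6.11 FPKM, inside the control range. KRT17 had 0.523, 0.699 and 0.154 FPKM, from 37, 41 and 8 fragments, and was the only 1 of the 7 whose groups did not overlap, beside 48.8% of all genes. Its log2 fold change was 1.67 ± 0.62 (SE, adjusted p = 0.0810). KRT81 had 1.99, 1.27 and 0.313 FPKM, from 87, 46 and 10 fragments, and a log2 fold change of 1.71 ± 0.65 (SE, adjusted p = 0.0872).

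Calcium added to DES was compared with DES alone, which asks whether the calcium response is seen in the presence of the antagonist. None of the 7 was called by limma or limma-voom, none had an unadjusted p under 0.05, and no keratin had groups apart, beside 0.136% of all genes called and 19.9% apart. KRT8 had 413, 500 and 243 FPKM, KRT18 had 512, 722 and 300 FPKM, and KRT7 had 357, 481 and 208 FPKM. For each of these the values overlapped those with DES alone, and replicate 3 was the lowest in both groups. The log2 fold changes were 0.38 (95% interval -0.57 to 1.33) for KRT8, 0.80 (-0.23 to 1.83) for KRT18 and 0.37 (-0.67 to 1.41) for KRT7. These intervals still hold rises of over 2-fold. Replicate numbers paired these libraries, and KRT18, KRT80 and KRT81 were higher in every pair. With the replicate number as a block they were not called either, at 0.80 ± 0.22, 0.31 ± 0.24 and 1.28 ± 0.66 (SE, adjusted p = 0.25, 0.521 and 0.383 by limma).

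For the scarce keratins the libraries with DES and calcium were uneven. KRT81 had 2.81, 11.6 and 0.404 FPKM, from 88, 485 and 12 fragments, and KRT17 had 0.925, 1.49 and 0.0415 FPKM, from 47, 101 and 2 fragments. Replicate 2 was the highest for both genes, and replicate 3 was the lowest, within the control range for KRT17 and above it for KRT81. KRT80 had 5.72, 13.9 and 6.28 FPKM, of which only replicate 2 was above the control range. KRT19 had 565, 751 and 666 FPKM, with a log2 fold change of 0.42 (95% interval -0.22 to 1.07).

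The difference between the calcium responses with and without DES was tested as an interaction. Of the 6 keratins other than KRT17, 1 was called, KRT80, beside 3.63% of all genes called and 2.38% called as lower. The effect of calcium on KRT80 was smaller with DES by a log2 difference of -2.65 ± 0.59 (SE, adjusted p = 0.0342). KRT81 had a larger and less precise difference, of -5.72 ± 1.51 (SE, adjusted p = 0.0625), and KRT17 was at -4.38. The median over the 6 keratins without KRT17 was -1.14, against -0.018 over all genes. For the abundant keratins they were -1.41 for KRT8 (95% interval -2.49 to -0.34), -0.86 for KRT7 (-1.99 to 0.26), -0.86 for KRT18 (-1.99 to 0.27) and -0.53 for KRT19 (-1.25 to 0.20). The KRT80 call was kept in 11 of 22 alternatives, with differences of -3.38 to -2.26 and adjusted p of 0.00367 to 0.208. It was lost without control replicate 1 or 2, without any of the 3 calcium replicates, without DES replicate 2 or 3, and without replicate 1 or 3 of DES with calcium, with no filter and with all 7 groups in one fit. With the replicate block KRT80 and KRT81 were called.

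**Figure D4:**
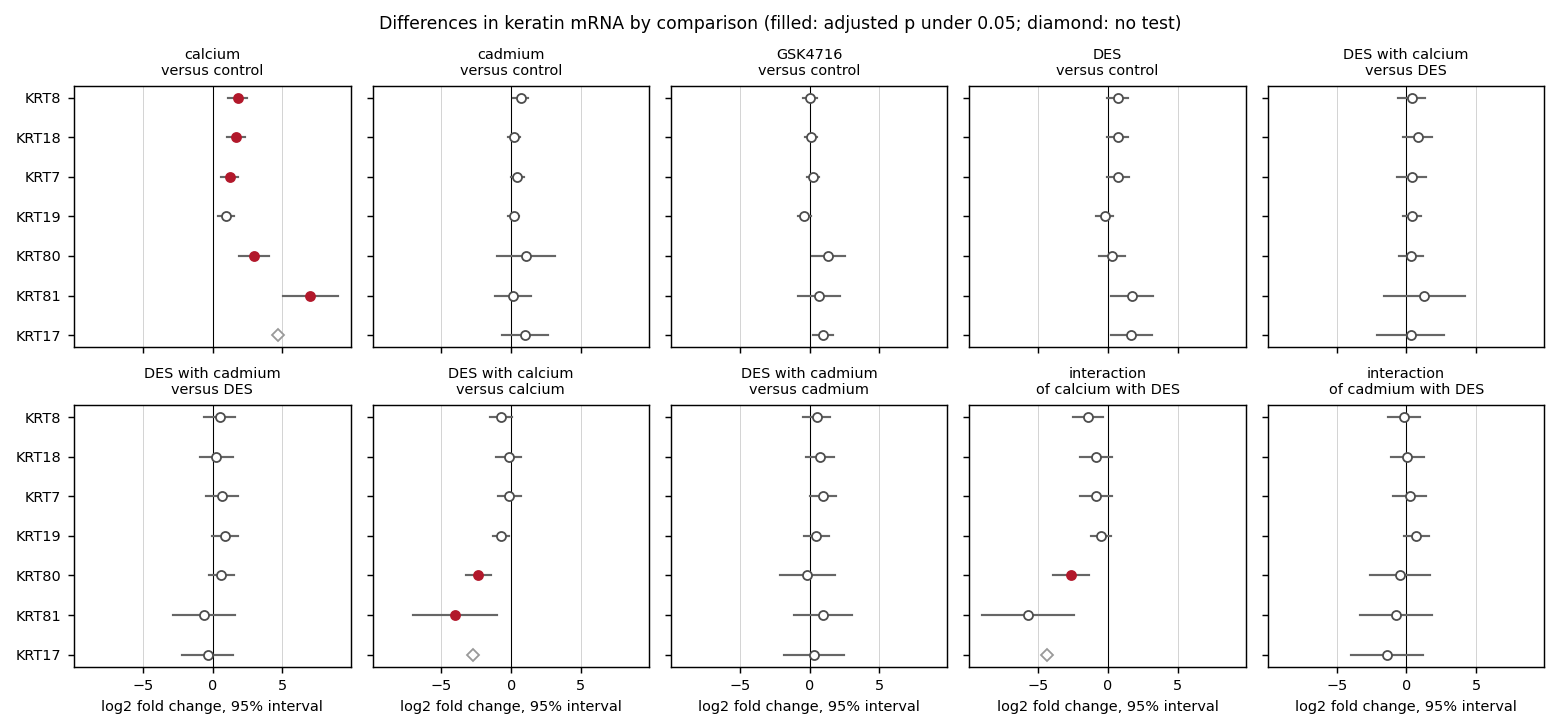
Log2 fold change (point) with its 95% interval (line) for each keratin in the 8 pairwise comparisons and the interactions of calcium and of cadmium with DES. Filled points have an adjusted p under 0.05 in limma, and diamonds mark KRT17 where it is given with no test. Filled points are found for 5 keratins with calcium against control (above 0), for KRT80 and KRT81 with DES and calcium against calcium (below 0) and for KRT80 in the interaction of calcium with DES.

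Compared directly with calcium alone, DES with calcium had lower KRT80 and KRT81. These 2 of the 6 keratins other than KRT17 were called as lower, beside 35.1% of all genes called and 16.5% called as lower. KRT80 differed by -2.34 ± 0.37 (log2, SE, adjusted p = 0.00563), a 5.07-fold lower level, and KRT81 by -4.01 ± 1.26 (SE, adjusted p = 0.0484). Of these 6, the KRT80 and KRT19 groups did not overlap, beside 50.8% of all genes. The highest KRT81 value with DES and calcium (11.6 FPKM) just passed the lowest with calcium (11.4 FPKM). KRT19 differed by -0.75 ± 0.24 (SE, adjusted p = 0.0534), and KRT17, given with no test, by -2.71. KRT18 and KRT7 overlapped between the groups, with log2 differences of -0.17 (95% interval -1.06 to 0.72) and -0.15 (-0.97 to 0.68), and KRT8 was at -0.73 (-1.54 to 0.08). After quantile normalization these 3 and KRT19 were called as lower as well, at -0.89 for KRT18, -0.87 for KRT7, -1.31 for KRT8 and -1.23 for KRT19 (adjusted p = 0.0214, 0.0218, 0.00318 and 0.00184). KRT81 lost its call without calcium replicate 2 or 3 (adjusted p = 0.146 and 0.140) and without replicate 1 or 3 of DES with calcium, and with no filter (0.455), while KRT80 kept its call in 15 of 16 alternatives, all but that with no filter (0.110). By limma-voom KRT19 was called in addition. The basal markers summed to 0.117 to 0.312 FPKM with DES and calcium against 0.348 to 0.817 with calcium, and the leukocyte markers to 0.370 to 0.872 against at most 0.184, and their part in these differences was not tested. This comparison shares the calcium libraries with that of calcium against the control.

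Cadmium added to DES gave no call against DES alone by limma or limma-voom, and none of the 7 had an unadjusted p under 0.05. Over all genes 0.266% were called. KRT19 had 1315, 770 and 750 FPKM, above the DES libraries in each, and was the only 1 of the 7 whose groups did not overlap, beside 16.2% of all genes. Its log2 fold change was 0.90 (95% interval -0.05 to 1.84, adjusted p = 0.496). KRT7 had 683, 373 and 263 FPKM, KRT8 had 667, 385 and 250 FPKM, and KRT18 had 623, 263 and 220 FPKM. Replicate numbers paired these libraries too, and KRT19, KRT7 and KRT8 were higher in every pair. With the replicate number as a block they were still not called, at 0.90 ± 0.20, 0.67 ± 0.19 and 0.50 ± 0.19 (SE, adjusted p = 0.161, 0.206 and 0.284 by limma). Replicate 1, the library with the distinct scaling, was the highest of these 3 for each of the 4 abundant keratins. As a share of fragments on genes, which does not depend on that scaling, the 7 keratins made up 0.869%, 0.658% and 0.495% in this group and 0.650%, 0.540% and 0.366% with DES.

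Against cadmium alone, DES with cadmium again gave no call among the 7 by limma or limma-voom, beside 9.89% of all genes, and KRT7 had an unadjusted p under 0.05. In deposited FPKM, KRT7, KRT18 and KRT19 were higher in every library with DES. These were 3 of 7 whose groups did not overlap, beside 40% of all genes. As a share of fragments on genes these 3 overlapped. Replicate 3 of DES with cadmium (19530, 12871 and 31803 of 19454418) was below a cadmium library for each gene. That library was cadmium replicate 1 for KRT7 and KRT18 (16610 and 11925 of 16172261) and replicate 2 for KRT19 (32607 of 18328122). Of FPKM outside the mitochondrial genome, the 7 keratins held 0.652% (SD 0.0547) under cadmium alone and 0.660% (SD 0.151) when DES was added. The log2 fold change of KRT7 was 0.95 ± 0.40 (SE, adjusted p = 0.153), and without replicate 1 of DES with cadmium it was 0.58 (adjusted p = 0.182). KRT81 had 1.87, 0.150 and 0.542 FPKM from 58, 4 and 19 fragments, and KRT80 had 16.4, 6.12 and 9.58 FPKM. The interaction of cadmium with DES gave no call by limma or limma-voom, with no unadjusted p under 0.05, beside 1.18% of all genes. Its estimates for the abundant keratins ran from -0.18 ± 0.54 for KRT8 to 0.72 ± 0.40 for KRT19 (SE).

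Across all 7 groups each of the 6 keratins other than KRT17 differed in the moderated F test, with adjusted p from 0.000304 for KRT81 to 0.0164 for KRT7, beside 59.1% of all genes called. The calcium group had the highest mean of KRT8, KRT18, KRT19, KRT17, KRT80 and KRT81, and DES with cadmium the highest mean of KRT7 (440 ± 218 FPKM, SD, n = 3). That order rested on replicate 1 of DES with cadmium: without it the mean of KRT7 was 318 FPKM, below the 372 FPKM of calcium. As a share of the fragments on genes calcium was the higher with all libraries, at 0.157% against 0.147%. Among the 6 keratins other than KRT17, only for KRT80 did the calcium libraries stand clear of the group next in order. They did for KRT17 too, which passed the limit of 0.5 FPKM only through them. In deposited FPKM cadmium stood clear of the group below it for KRT7, KRT8 and KRT19. All other neighbours in the orders overlapped, except GSK4716 and the control for KRT17.

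The patterns of the 7 over the group means were alike to differing degrees. Pearson's r was taken over the 7 group means of log2(FPKM + 0.1). Among the 6 keratins other than KRT17 it was highest between KRT8 and KRT18 (0.908) and between KRT8 and KRT7 (0.908). It was lowest between KRT80 and KRT7 (0.445). KRT17 had an r of 0.977 with KRT81, but passed the limit of 0.5 FPKM only through the calcium group. The group means are of 3 libraries each, share the deposited scaling and are given as a description. Among 12245 genes with a mean of at least 1 FPKM, those most like KRT8 were ANO9 (r = 0.987), NPIPA5 (0.987) and SPRR1A (0.978), a component of the cornified envelope. Those most like KRT18 were AC004982.2 (0.985), S100A14 (0.980) and FOS (0.978), and those most like KRT7 were ENO2 (0.993), CTNNA1 (0.992) and CSRP1 (0.973). KRT19 was most like the pseudogene KRT8P3 (0.953), ADCK5 (0.946) and NSMF (0.946). KRT80 was most like RNF149 (0.993), URAHP (0.977) and ENTPD8 (0.972). KRT17 was most like OAS1 (0.986), ZFP36 (0.982) and RASD1 (0.979), and KRT81 was most like OVOL1 (0.988), an epithelial transcription factor, MX1 (0.985) and S100A10 (0.981). SPRR1A and MX1 passed the limit of 1 FPKM only through the calcium group, with means of 0.571 and 0.994 FPKM over the other libraries, so their likeness rests on the group that admitted them. The r values of KRT17 rest on that group in the same way, with a mean of 0.372 FPKM for KRT17 over the other libraries.

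The other 48 protein-coding keratins were scarce. The 7 described made up 97.8% to 99.4% of all keratin FPKM in a library, 6 of the others passed the limit of 0.5 FPKM, and 18 never exceeded 3 fragments. KRT10, a keratin of differentiating epidermis, had the highest mean of them and was called as higher with DES, from 5.84 ± 0.85 to 13.8 ± 0.35 FPKM (SD, n = 3, log2 fold change 1.24, adjusted p = 0.00289). With calcium its log2 fold change was 0.29 (adjusted p = 0.515). KRT23 was at 1.07 ± 0.31 FPKM in the control and was called as higher with calcium, at 4.91 ± 1.64 FPKM (2.07, adjusted p = 0.0272). KRT16, a keratin of activated keratinocytes that pairs with KRT6, was at 0.080 ± 0.064 FPKM in the control and 3.99 ± 1.41 FPKM with calcium (SD, n = 3). Outside the calcium group its mean was 0.311 FPKM, so KRT16 passed the limit only through the calcium group, and its values are given with no test. KRT16 was the only 1 of the 7 listed basal keratins that passed the limit. Of the 16 listed hair keratins KRT32, beside KRT86 described above, passed the limit and was called in none of the pairwise comparisons or interactions. KRT4, which passed the limit too, was at -1.43 (log2) with calcium (adjusted p = 0.219).

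Pseudogenes took few fragments from the abundant keratins. The 50 KRT8 pseudogenes together held at most 1.74% as many fragments as KRT8 in a library, and the 67 KRT18 pseudogenes at most 2.38% as many as KRT18. The 5 KRT19 pseudogenes held at most 5 fragments.

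Genes that anchor keratins or shape their network were described by list. Of 12 listed desmosome and linker genes, 10 were tested and 2 were called as higher with calcium, beside 4.6% of all genes, EPPK1 and PPL, named after their values were seen. EPPK1, which encodes the keratin-binding linker epiplakin, had a log2 fold change of 1.96 ± 0.20 (SE, adjusted p = 0.0102), and PPL, which encodes periplakin, 0.86 ± 0.13 (SE, adjusted p = 0.0228). The median of the 10 was 0.75, against -0.013 over all genes. With DES and calcium against calcium, 6 of the 10 were called as lower, beside 16.5% of all genes, and none as higher, with a median of -1.04 against -0.014 over all genes. EPPK1 was also called in the interaction of calcium with DES (-2.62 ± 0.41, SE, adjusted p = 0.0100). With DES against control 1 of the 10 was called, beside 29.6% of all genes. This was PLEC (plectin), which links keratin filaments to other structures and was lower with DES, from 51.5 ± 11.5 to 25.9 ± 2.24 FPKM (SD, n = 3, log2 fold change -0.97, adjusted p = 0.0109). The desmosomal cadherin DSG2 was at 7.56 ± 0.66 FPKM in the control and 5.03 ± 1.04 with DES (-0.59, adjusted p = 0.0564).

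Of the 4 genes listed for keratin organisation, none was called with calcium (7.12% of all genes), and with DES 2 were called as higher and 1 as lower (29.6% of all genes). DNAJB6, a chaperone that binds KRT18, rose from 5.52 ± 0.34 to 12.9 ± 1.23 FPKM (1.21, adjusted p = 0.00258), and FAM83H, which recruits casein kinase 1 to keratin filaments, fell from 74.0 ± 11.0 to 41.8 ± 6.34 FPKM (-0.82, adjusted p = 0.0158). Among 6 other intermediate filament genes, 5 were tested, of which 1 was called as higher and 2 as lower with calcium (7.12% of all genes), and 1 as higher and 2 as lower with DES (29.6% of all genes). The nuclear lamin gene LMNA rose with calcium from 78.8 ± 23.3 to 182 ± 25.2 FPKM (SD, n = 3, 1.23, adjusted p = 0.0357) and with DES to 133 FPKM (0.79, adjusted p = 0.0420), and LMNB2 fell with calcium from 33.5 ± 8.12 to 17.5 ± 1.90 FPKM (-0.91, adjusted p = 0.0457) and with DES to 17.0 ± 1.60 (-0.95, adjusted p = 0.0133). LMNB1, another lamin gene, named after its values were seen, was the other one called as lower, at -1.59 with calcium (adjusted p = 0.0258) and -0.87 with DES (adjusted p = 0.0484). VIM, the filament gene of mesenchymal cells, was not tested, with at most 0.131 FPKM.

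The RefSeq table of promoters used here (GRCh38.p14) gave a window for KRT8, at chr12:52926420-52926719 on the minus strand, from 250 bases before to 50 after a start site within the gene span. None of 6 motifs occurred in it on either strand. These were AP-1 (TGANTCA, in 7.71% of the 35116 promoters of the table), the ERR element given by the study (TNAAGGTCA, 0.951%), the core of a nuclear receptor site (AGGTCA, 13.8%, which the ERR element contains), a metal response element core (TGCACNC or TGCGCNC, 29.6%), a GC box (GGGCGG, 45.0%) and a TATA box (TATAAA, 11.5%). The absence says only that these letters are not in this window.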

How the data were processed

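The deposited values are FPKM per gene and library, which the authors made from paired reads. The labels name HISAT2 2.0.5, featureCounts 1.5.0-p3 and GRCh38.p14. Every column of library values was assigned to a sample by its library name. Fragments were recovered from the FPKM steps (tolerance 0.1 fragments). No library was a copy of another, since at most 4.97% of detected genes held the same number of fragments in any 2. A count of 0 allows 3 fragments, for counting error only.

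Genes with a mean of at least 0.5 FPKM were tested in R 4.3.3 with limma 3.58.1 (lmFit, eBayes with a trend) on log2(FPKM + 0.1), with the compared groups alone in the fit. Two-sided p-values from the 14686 genes were adjusted together (Benjamini-Hochberg, threshold 0.05). An interaction is how much a metal's effect with DES exceeded that in cells not given DES. The limma fit was tested on simulated fragments for calcium against control, the interaction of calcium with DES and the test across all 7 groups. Tables and figures used Python 3.11.15. Near copies were read from GENCODE transcripts. Their sequences are not reported here.

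Equal replicate numbers deviated together for DES with calcium against DES (r = 0.132, 0.103 and 0.280) and likewise when cadmium was the metal (0.472, 0.121 and 0.313), while in every other comparison at least 1 of the 3 correlations was under 0.1.

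The members, the gene lists and the tests were chosen with earlier results of these data known. Genes named are the 7 keratins, the 3 genes most like each in pattern, the 3 most abundant other keratins, KRT83 and KRT86, and the 2 genes of each list with the smallest p with DES against control. EPPK1, PPL, LMNB1 and KRT4 were named after their values were seen. The alternatives were a pseudocount of 1, no filter, a mean of at least 2 FPKM, median-ratio scaling, scaling by total fragments, limma-voom on the fragments, quantile normalization, the replicate number as a block, library weights (arrayWeights), a single fit of all 7 groups, and each library left out.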

Additional observations from a re-analysis of the deposited data

Results flagged for a closer look

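The effect of calcium on KRT80 differed between cells with and without DES in a test of the difference itself, by -2.65 on the log2 scale (95% interval -3.93 to -1.36, adjusted p = 0.0342, limma). That call was kept in 11 of 22 alternatives and was lost when any 1 of the 3 calcium libraries was left out. Without DES the calcium libraries had 30.8, 41.5 and 52.5 FPKM against 2.97, 4.72 and 9.68 in the control, and with DES 5.72, 13.9 and 6.28 FPKM against 5.70, 7.48 and 6.11.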

How the results depend on the processing

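KRT17 is not counted where the calcium group is compared, nor is KRT81 there at a mean of at least 2 FPKM, which it passed only through that group. Calcium against control gave 5 of 6 calls, 2 with a replicate block (260 genes in all against 1046), 0 with no filter on low values (30 genes) and 0 to 5 without 1 library. Cadmium against control gave 6 calls with arrayWeights, which called 8325 genes in all. DES against control gave 1 call after quantile normalization, 7 with arrayWeights (10334 genes in all), 1 with limma-voom and 0 to 4 without 1 library. DES with calcium against calcium gave 2 of 6 calls, 4 with a replicate block, 6 after quantile normalization, 0 with no filter and 1 to 2 without 1 library. DES with cadmium against cadmium gave 1 call with all 7 groups in one fit. The interaction of calcium with DES gave 1 of 6 calls, 2 each with quantile normalization and a replicate block, 3 with arrayWeights, 0 with no filter or all 7 groups in one fit, and 0 to 2 without 1 library. The interaction of cadmium with DES gave 4 calls with arrayWeights (6358 genes in all). The causes were not tested. The replicate block changed no keratin call in the other comparisons, the paired ones of DES with a metal against DES included.

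Directions turned only for log2 fold changes that had missed the threshold. With arrayWeights, KRT17 with DES and calcium against DES was at -0.013, against DES the cadmium addition gave -0.043 for KRT8 and -0.35 for KRT18, and DES with cadmium against cadmium gave -0.035 for KRT8 and -0.21 for KRT17. After quantile normalization, DES with cadmium against DES gave -0.033 for KRT18 and 0.31 for KRT17, and against cadmium -0.45 for KRT8, -0.12 for KRT18 and -0.35 for KRT19. The interaction of cadmium with DES was -0.0582 (quantile) and -0.38 (arrayWeights) for KRT7, and -0.093 (total fragments), -0.17 (quantile) and -0.57 (arrayWeights) for KRT18. Leaving out 1 library gave -0.34 to 0.58 for KRT81 with cadmium, -0.10 to 0.22 for KRT8 and -0.024 to 0.27 for KRT18 with GSK4716, and -0.083 to 0.75 for KRT80 with DES. It gave -0.40 to 1.35 for KRT17 and -0.090 to 0.54 for KRT80 with DES and calcium against DES, and -0.42 to 0.18 for KRT7 and -0.46 to 0.17 for KRT18 against calcium. With DES and cadmium it gave -0.20 to 0.55 for KRT18, -0.86 to 0.33 for KRT17 and -1.40 to 0.087 for KRT81 against DES, and -0.43 to 0.99 for KRT17 and -1.06 to 0.54 for KRT80 against cadmium. In the interaction of cadmium with DES it gave -0.14 to 0.55 for KRT7, -0.55 to 0.16 for KRT8, -0.39 to 0.36 for KRT18 and -1.36 to 0.23 for KRT80. With control fragments of KRT17 and KRT81 at 13 or fewer, depth limits their folds.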
